A study of Mus musculus with 12 samples.

Results

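The Fc gamma receptors, the receptors through which macrophages bind the constant part of IgG, were examined with the proteins that carry out the first steps of their signal. The members were taken by gene name as Fcgr1, Fcgr2b, Fcgr3, Fcgr4, Fcer1g, Syk, Fcgrt and Inpp5d, with no threshold on a measured value, and all 8 were found among the 54532 genes of the count table. They were chosen with earlier results of these data known. Mouse bone marrow macrophages (BMMs) were prepared from wild-type C57BL/6J mice, 2 to 3 months of age, by culture with CSF-1, the growth factor of the macrophage lineage, and were passaged once. The cells were kept for 24 h with 10 µg/ml of a neutralizing antibody to integrin α5 (anti-ITGA5, clone HMa5-1) or with 10 µg/ml of isotype-matched control IgG, on plain dishes or on dishes coated with fibronectin at 10 µg/ml. Each antibody was thus studied with and without fibronectin, in 4 groups of 3 libraries. All 4 groups received an antibody, both described as Armenian hamster IgG, and no group without antibody was analysed here. What a bound antibody does to the level of its own receptors therefore cannot be told apart from the state of the cells in culture, and each contrast is between antibodies or between coatings. The libraries of a group are described in the study as biologically independent experiments, and the labels do not say whether these used separate animals, so p-values measure the spread between these libraries.

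Activating receptors pass on their signal through a shared adaptor. Fcgr1 is the receptor of high affinity for monomeric IgG, while Fcgr3 and Fcgr4 bind immune complexes with lower affinity. All of them assemble with the common gamma chain encoded by Fcer1g, whose ITAM (immunoreceptor tyrosine-based activation motif) is phosphorylated by Src family kinases and then recruits the tyrosine kinase Syk. Fcgr2b is the inhibitory member: its ITIM (the inhibitory counterpart of the ITAM) recruits SHIP1, the lipid phosphatase encoded by Inpp5d, which removes the product of phosphoinositide 3-kinase. Fcgrt encodes the heavy chain of the neonatal Fc receptor, which pairs with B2m and returns endocytosed IgG to the cell surface rather than signaling.

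The receptor genes lie close together on chromosome 1, except for Fcgr1 and Fcgrt. On GRCm38, Fcgr2b is at chr1:170958617-170976547 (minus strand), Fcgr4 at chr1:171018920-171029761 (plus strand), Fcgr3 at chr1:171051174-171064935 (minus strand) and Fcer1g at chr1:171229572-171234365 (minus strand). Inpp5d is on the same chromosome at chr1:87620312-87720507 (plus strand), Fcgr1 is at chr3:96282909-96293969 (minus strand), Syk at chr13:52583173-52648792 (plus strand) and Fcgrt at chr7:45092990-45103851 (minus strand). Fcgr2b and Fcgr3 are close paralogs, and their transcripts share 166 windows of 50 bases, 12.8% of the windows of Fcgr3 and 4.75% of those of Fcgr2b. The longest stretch that is identical in both is shown because it marks where the paralogs cannot be told apart by sequence. It is 129 bases long and lies wholly in coding sequence, in exons 3 and 4 of each gene (chr1:170967980-170968081 and chr1:170966674-170966700 in Fcgr2b, chr1:171057691-171057792 and chr1:171054167-171054193 in Fcgr3, minus strand).
Fcgr2b and Fcgr3, shared coding run: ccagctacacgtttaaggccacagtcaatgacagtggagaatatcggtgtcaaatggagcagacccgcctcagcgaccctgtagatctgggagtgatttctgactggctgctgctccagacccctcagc
The run is shorter than a full read of this sequencing, so a full read also covers bases outside it. How the counting treated reads with more than one placement is not given in the sources used here, and its part in the levels of Fcgr2b and Fcgr3 was not tested. The 6 other members shared no window of 50 bases with any other gene.

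Promoters are shown for Fcgr1, Fcgr4 and Fcgr3, the activating receptors, because these genes share an adaptor and differ in the short sequences their promoters hold. The 250 bases before each start site were taken from RefSeq on GRCm38.p6, in which all 8 members matched by symbol, and are written along the gene's own strand. Capitals mark matches to 4 short sequences, searched on both strands: GAGGAA (or TTCCTC, the core bound by PU.1, the myeloid master factor), TTCNNNGAA (the gamma-activated site of interferon-responsive genes, GAS), GAAA followed after any 2 bases by GAAA (the interferon-stimulated response element, ISRE) and TTGCNNAA (a C/EBP site).
Fcgr1 (chr3:96293970-96294219, minus strand): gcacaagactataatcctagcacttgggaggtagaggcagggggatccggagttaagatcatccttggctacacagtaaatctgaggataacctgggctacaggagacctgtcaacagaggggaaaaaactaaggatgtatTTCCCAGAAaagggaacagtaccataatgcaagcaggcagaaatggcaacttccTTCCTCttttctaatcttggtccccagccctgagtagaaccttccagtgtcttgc
Fcgr4 (chr1:171018676-171018925, plus strand): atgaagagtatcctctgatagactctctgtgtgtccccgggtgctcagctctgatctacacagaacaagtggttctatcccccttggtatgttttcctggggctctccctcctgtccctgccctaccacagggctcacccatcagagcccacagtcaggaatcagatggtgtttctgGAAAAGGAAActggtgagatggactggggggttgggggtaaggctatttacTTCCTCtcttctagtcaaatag
Fcgr3 (chr1:171059404-171059653, minus strand): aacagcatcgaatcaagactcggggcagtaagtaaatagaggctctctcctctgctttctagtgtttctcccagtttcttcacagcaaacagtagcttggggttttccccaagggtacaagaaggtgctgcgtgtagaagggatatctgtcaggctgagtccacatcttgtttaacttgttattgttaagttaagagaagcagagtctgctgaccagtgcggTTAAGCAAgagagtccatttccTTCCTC
The Fcgr1 window held the GAS sequence TTCCCAGAA, 109 bases before the start, a motif that 7.02% of 32851 promoter windows of the same length hold. Only the Fcgr4 window among the members held the ISRE sequence, as GAAAAGGAAA 73 bases before the start, against 2.98% of all windows. The PU.1 core was present in all 3, at 55, 22 and 6 bases before the start in Fcgr1, Fcgr4 and Fcgr3, and also in the windows of Inpp5d and of the second start of Syk, with 23.3% of all windows holding it. RefSeq gives Fcgr3 2 starts, and the window of the upstream start is shown. The window of the other start (chr1:171059395-171059644) held the same matches, with the PU.1 core 15 bases before that start. Both windows lie within the Fcgr3 gene as placed above. TTGCNNAA was found in the Fcgr3 and Fcgrt windows, against 9.56% of all windows, and no match overlapped another. The windows of Fcgr2b and Fcer1g held none of these letters.

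Gene counts summed to between 12954342 and 22075432 in each library, and the 8 members took between 0.176% and 0.201% of them. Even the member with the fewest counts, Fcgr4, had 230 counts or more in every library. One library stood apart in depth and complexity: anti-ITGA5 without fibronectin replicate 2 had the fewest counts and the most genes detected (21123 with at least 1 count). Another, anti-ITGA5 with fibronectin replicate 3, stood apart in interferon-stimulated genes, as described beside Fcgr1. All 7 macrophage markers examined were present, their summed FPKM (fragments counted per gene, scaled to its length and to the library's size) lay between 6110 and 9780 (8940 to 9780 in IgG and 6110 to 7480 in anti-ITGA5, mostly Lyz2, at 7149 to 7988 and 4559 to 5788 FPKM), and Ly6g of neutrophils was at 0 in every library while Cd3e of T cells never exceeded 1 count. Markers of B cells (Cd79b among them) summed to 3.08 to 4.59 FPKM in IgG and 1.98 to 2.81 FPKM in anti-ITGA5, and of the neutrophil list to at most 4.44 FPKM in any library. In the megakaryocyte list the chemokine Pf4 accounted for most of the sum, which was 516 to 699 FPKM in IgG and 361 to 511 FPKM in anti-ITGA5. The part of these cells in the results was not tested. In bulk RNA, fewer expressing cells and less RNA per cell cannot be told apart.

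Fcer1g was the most abundant member per unit of gene length. Its mean over the 12 libraries was 624 FPKM, the 42nd highest of all genes, against 208 FPKM for Fcgr3, 49.1 FPKM for Inpp5d, 36.3 FPKM for Syk and 35.6 FPKM for Fcgr1. The lowest levels were those of Fcgr2b (20.2 FPKM), Fcgr4 (18.0 FPKM) and Fcgrt (14.3 FPKM). The order of the first 4 held in every library, each gene exceeding the next without overlap of their ranges. Syk exceeded Fcgr1 in 7 of 12 libraries, and these neighbours did not differ beyond their spread. Fcgr1 was above Fcgr2b in 12 of 12 libraries. Fcgr2b exceeded Fcgr4 in 9 of 12 libraries, Fcgr4 exceeded Fcgrt in 10 of 12, and the ranges of these neighbours overlapped. Among the receptors with a signaling partner, the low-affinity Fcgr3 thus had the highest level in each of the 4 groups.

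**Figure D1:**
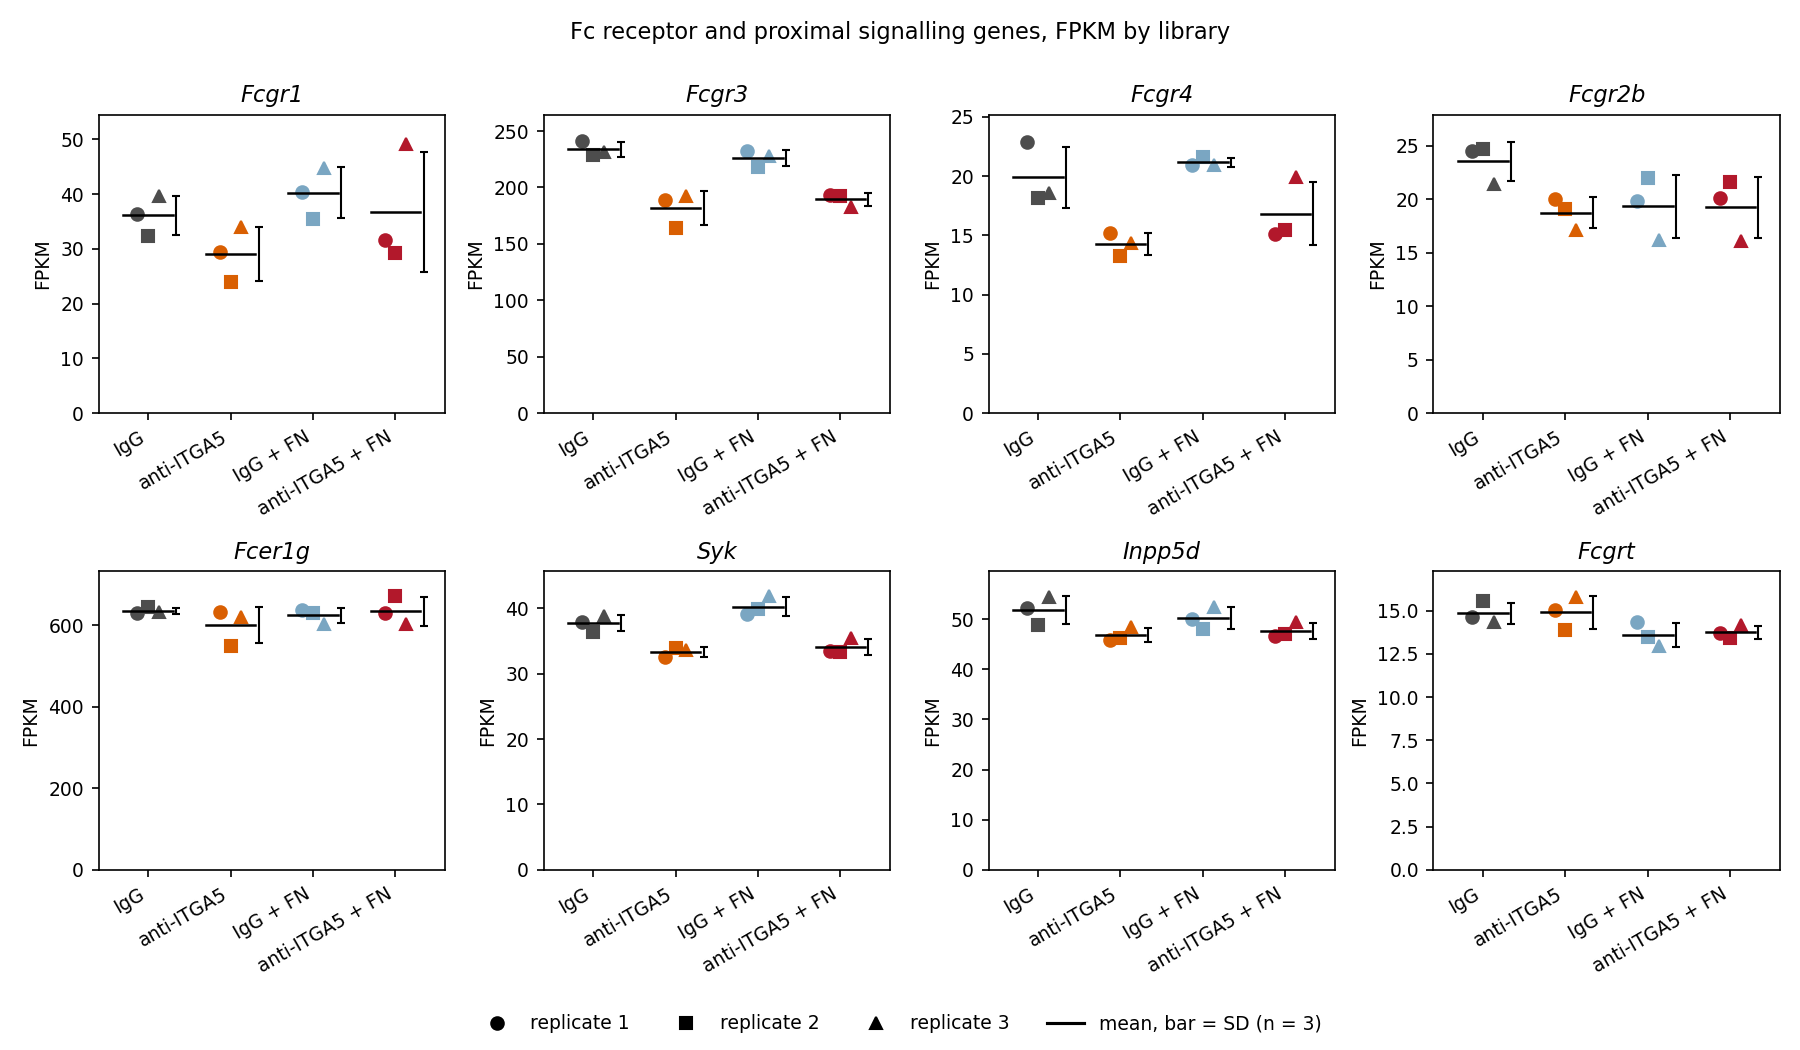
FPKM of each of the 8 genes (vertical axis, from 0) in the 12 libraries, grouped by antibody and coating (FN, fibronectin); symbols mark the replicate number, horizontal lines the mean and bars the SD of 3 libraries. Fcgr3 lies between 218 and 241 FPKM in IgG and between 164 and 194 FPKM in anti-ITGA5, and Fcgr1 of anti-ITGA5 with fibronectin replicate 3 is the highest Fcgr1 value at 49.3 FPKM.

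ITGA5 neutralization without fibronectin was compared with IgG to ask which receptor genes differ between the antibodies. Blockade of the integrin and the binding of anti-ITGA5 to its target on the cells cannot be told apart in this contrast. Activating and inhibitory receptor genes both fell: Fcgr4 by 27.8%, Fcgr3 by 22% and the inhibitory Fcgr2b by 20.2%, while Syk fell by 11.2%. With edgeR's quasi-likelihood test and Benjamini-Hochberg adjustment over 12924 genes, 4 of 8 members were lower (adjusted p of at most 0.05) and none was higher. Over all genes tested, 9.79% were called lower and 11.0% higher. The median log2 fold change of the members was -0.24, against 0.0090 for all genes.

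Fcgr3 was at 241, 229 and 232 FPKM in IgG replicates 1 to 3 and at 189, 164 and 192 FPKM in anti-ITGA5 replicates 1 to 3. The groups did not overlap, and the log2 fold change was -0.36 (SE 0.061, edgeR quasi-likelihood test, Benjamini-Hochberg adjusted p = 0.00237). Fcgr4 was at 22.9, 18.2 and 18.6 FPKM in IgG and at 15.2, 13.3 and 14.3 FPKM in anti-ITGA5. Every anti-ITGA5 library was below every IgG library, and the log2 fold change was -0.47 (SE 0.10, adjusted p = 0.00765 by the same edgeR test). The inhibitory Fcgr2b was at 24.5, 24.7 and 21.4 FPKM in IgG and at 19.99, 19.1 and 17.1 FPKM in anti-ITGA5, again without overlap and in the direction of the activating receptors. Its log2 fold change was -0.33 (SE 0.075, edgeR adjusted p = 0.0114). Syk was at 37.9, 36.4 and 38.8 FPKM in IgG and at 32.5, 34.0 and 33.6 FPKM in anti-ITGA5. These groups did not overlap either, with a log2 fold change of -0.17 (SE 0.052, edgeR adjusted p = 0.0389).

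The other members did not pass the test. Fcgr1, the high-affinity receptor, was at 36.4, 32.4 and 39.6 FPKM in IgG and at 29.4, 24.0 and 33.9 FPKM in anti-ITGA5. Its highest anti-ITGA5 library overlapped the lowest IgG library, and its log2 fold change was -0.30 (SE 0.11, edgeR adjusted p = 0.0738). Each anti-ITGA5 library was below the IgG library of the same replicate number. Inpp5d was at 52.2, 48.8 and 54.4 FPKM in IgG and at 45.9, 46.2 and 48.3 FPKM in anti-ITGA5. Although the groups did not overlap, its log2 fold change of -0.14 (SE 0.056) had an edgeR adjusted p of 0.104. The adaptor Fcer1g was at 631, 644 and 632 FPKM in IgG and at 632, 550 and 620 FPKM in anti-ITGA5, a log2 fold change of -0.077 (SE 0.057, edgeR adjusted p = 0.384). One anti-ITGA5 library lay within the IgG range, and the lowest was the library with the fewest counts. Fcer1g was at -0.024 without that library and ranged down to -0.11 with other single libraries left out (adjusted p between 0.331 and 0.676). Fcgrt was at 14.6, 15.6 and 14.4 FPKM in IgG and at 15.1, 13.9 and 15.8 FPKM in anti-ITGA5, with full overlap and a log2 fold change of 0.014 (SE 0.069, edgeR adjusted p = 0.913). For each member without overlap, the 2-sided exact permutation test of mean FPKM gave p = 0.10, the smallest that 3 libraries against 3 allow. Itga5, the target of the antibody, was measured at 44.8, 44.5 and 49.1 FPKM in IgG and at 53.1, 50.4 and 49.4 FPKM in anti-ITGA5 (log2 fold change 0.15, SE 0.057, edgeR adjusted p = 0.0906), and since the antibody blocks the protein this does not check its action.

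The count of 4 depended on single libraries. It was 2 when replicate 1 or replicate 2 of IgG without fibronectin was left out, since Fcgr2b (adjusted p = 0.0705 and 0.061) and Syk (0.147 and 0.0645) then missed the threshold in edgeR. When the shallow library, replicate 2 of anti-ITGA5, was left out, the count was 5, with Inpp5d added (adjusted p = 0.0394), and the log2 fold change of Fcgr1 was -0.19 (SE 0.077, adjusted p = 0.0765). Over single libraries left out, Fcgr1 ranged from -0.43 to -0.19, with an adjusted p between 0.0134 and 0.276, and it was called in 1 of these 6 fits, that without anti-ITGA5 replicate 3. The call of Syk was lost in 7 of 15 alternatives, with an adjusted p-value between 0.00244 and 0.157, whereas those of Fcgr3 and Fcgr4 held in all 15. Fcgr1 was called in 4 of 15 alternatives, among them DESeq2, at -0.31 (SE 0.11, adjusted p = 0.034), and the test of every gene with at least 1 count (adjusted p = 0.000812). The fit with the replicate number as a block was another of these.

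With fibronectin, the same antibody contrast gave lower Fcgr3, Fcgr4 and Syk, and Fcgr2b did not pass the test. Fcgr4 fell by 20.8%, Fcgr3 by 16.2% and Syk by 15.4%. By edgeR's quasi-likelihood test 3 of 8 members were lower and none higher among 12916 genes tested, of which 13.2% were called lower and 14.4% higher. The median log2 fold change of the members was -0.11, and that of all genes -0.0038.

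Fcgr3 was at 232, 218 and 228 FPKM in IgG with fibronectin and at 194, 192 and 183 FPKM in anti-ITGA5 with fibronectin. All IgG libraries were above all anti-ITGA5 libraries, and the log2 fold change was -0.25 (SE 0.041, edgeR quasi-likelihood test, Benjamini-Hochberg adjusted p = 0.000602). Syk was at 39.0, 39.9 and 41.8 FPKM in IgG and at 33.4, 33.3 and 35.5 FPKM in anti-ITGA5. This difference, also without overlap, was -0.24 on the log2 scale (SE 0.043, edgeR adjusted p = 0.00128). Fcgr4 was at 20.9, 21.6 and 21.0 FPKM in IgG and at 15.1, 15.4 and 19.9 FPKM in anti-ITGA5. The highest anti-ITGA5 value, that of replicate 3, fell just below the IgG range, and the log2 fold change was -0.34 (SE 0.099, edgeR adjusted p = 0.0238). That call was lost in 7 of 15 alternatives, with an adjusted p-value of up to 0.114 when anti-ITGA5 with fibronectin replicate 1 was left out.

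Fcgr2b was at 19.8, 22.0 and 16.2 FPKM in IgG and at 20.1, 21.6 and 16.1 FPKM in anti-ITGA5. The groups were nearly superimposed, and the log2 fold change was -0.0067 (SE 0.11, edgeR adjusted p = 0.973). Fcer1g was at 639, 631 and 604 FPKM in IgG and at 629, 673 and 603 FPKM in anti-ITGA5, overlapping throughout (log2 fold change 0.022, SE 0.045, edgeR adjusted p = 0.757). Inpp5d was at 50.1, 48.1 and 52.4 FPKM in IgG and at 46.6, 46.9 and 49.4 FPKM in anti-ITGA5. Here 1 anti-ITGA5 library reached the IgG range, and the log2 fold change was -0.077 (SE 0.044, edgeR adjusted p = 0.22). Fcgrt was at 14.4, 13.5 and 12.9 FPKM in IgG and at 13.7, 13.4 and 14.2 FPKM in anti-ITGA5, with a log2 fold change of 0.015 (SE 0.068, edgeR adjusted p = 0.897). Recycling of IgG by this receptor also needs B2m, its light chain, which was lower without fibronectin (log2 fold change -0.31, SE 0.065, edgeR adjusted p = 0.00681) and differed by -0.17 with it (SE 0.072, adjusted p = 0.101).

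**Figure D2:**
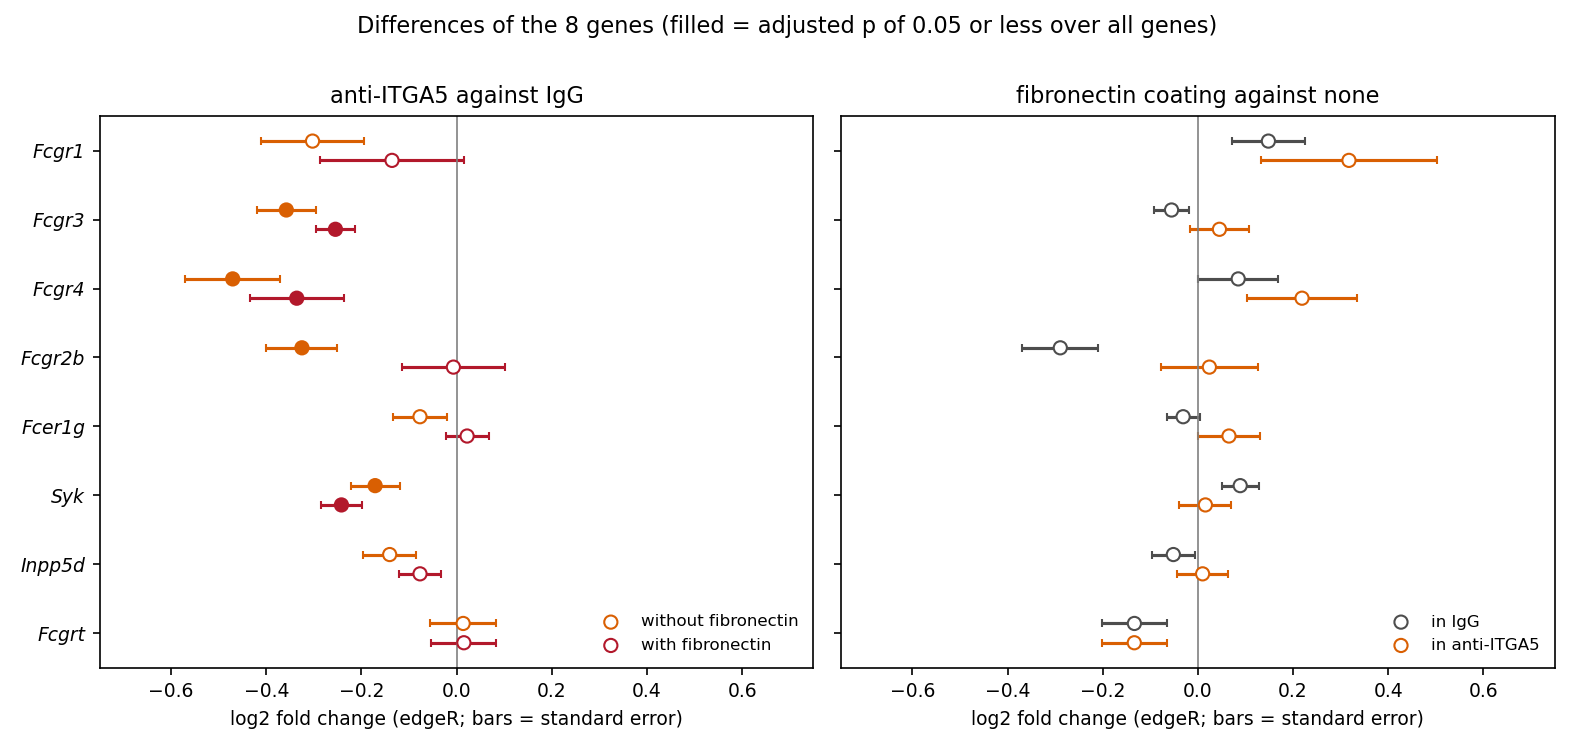
Log2 fold change (horizontal axis) of the 8 genes for anti-ITGA5 against IgG (left) and for fibronectin against no coating (right), from edgeR, with bars of 1 standard error; filled points passed an adjusted p-value of 0.05 over all genes. Filled points are Fcgr3, Fcgr4, Fcgr2b and Syk without fibronectin and Fcgr3, Fcgr4 and Syk with it, all to the left of 0, and no coating contrast has one.

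Fcgr1 depended on single libraries with fibronectin. It was at 40.4, 35.5 and 44.8 FPKM in IgG and at 31.7, 29.3 and 49.3 FPKM in anti-ITGA5. Replicate 3 of anti-ITGA5 was above all IgG libraries while the remaining libraries were below them, and the log2 fold change over all 6 libraries was -0.14 (SE 0.15, edgeR adjusted p = 0.546). With the replicate number as a block Fcgr1 was called lower. Without anti-ITGA5 with fibronectin replicate 2 the log2 fold change was 0.0033 (edgeR adjusted p = 0.991). Without anti-ITGA5 with fibronectin replicate 3 the log2 fold change was -0.40 (SE 0.076, edgeR adjusted p = 0.000697), and 4 of 8 members were called, with Fcgr4 at -0.47 (SE 0.081, adjusted p = 0.000277) and Fcgr2b, not called, at 0.11 (adjusted p = 0.379). Fcgr1 is itself a well-known gene of the interferon response. A list of 12 interferon-stimulated genes, written after these values were seen, had its highest FPKM in that library for 12 of 12 genes, and their sum was 146 FPKM there against 50.7 and 43.4 FPKM in replicates 1 and 2. Isg15, a ubiquitin-like modifier, was at 17.9 FPKM there and at 6.27 and 4.19 FPKM in the others.

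The summed interferon list also lay higher in IgG than in anti-ITGA5 without fibronectin. Its sum was 77.6 to 94.0 FPKM in IgG and 38.1 to 53.4 FPKM in anti-ITGA5 without fibronectin, and 85.0 to 105 FPKM in IgG with fibronectin. Fcgr1 had its highest value in the library with the highest sum and its lowest value in the library with the lowest sum. The library with the lowest sum was the shallow library, anti-ITGA5 without fibronectin replicate 2, where Fcgr3 (164 FPKM) and Fcer1g (550 FPKM) were also lowest. Fcgr4 was at 19.9 FPKM at the highest sum and at 13.3 FPKM, its lowest value, at the lowest sum. The highest Fcgr4 value, 22.9 FPKM, was in IgG without fibronectin replicate 1, which had the lowest sum of the IgG libraries (77.6 FPKM). Fcgr2b had its lowest level, 16.1 FPKM, in the library with the highest sum. The part of the interferon-stimulated genes in the differences of Fcgr1 and Fcgr4 was not tested.

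**Figure D3:**
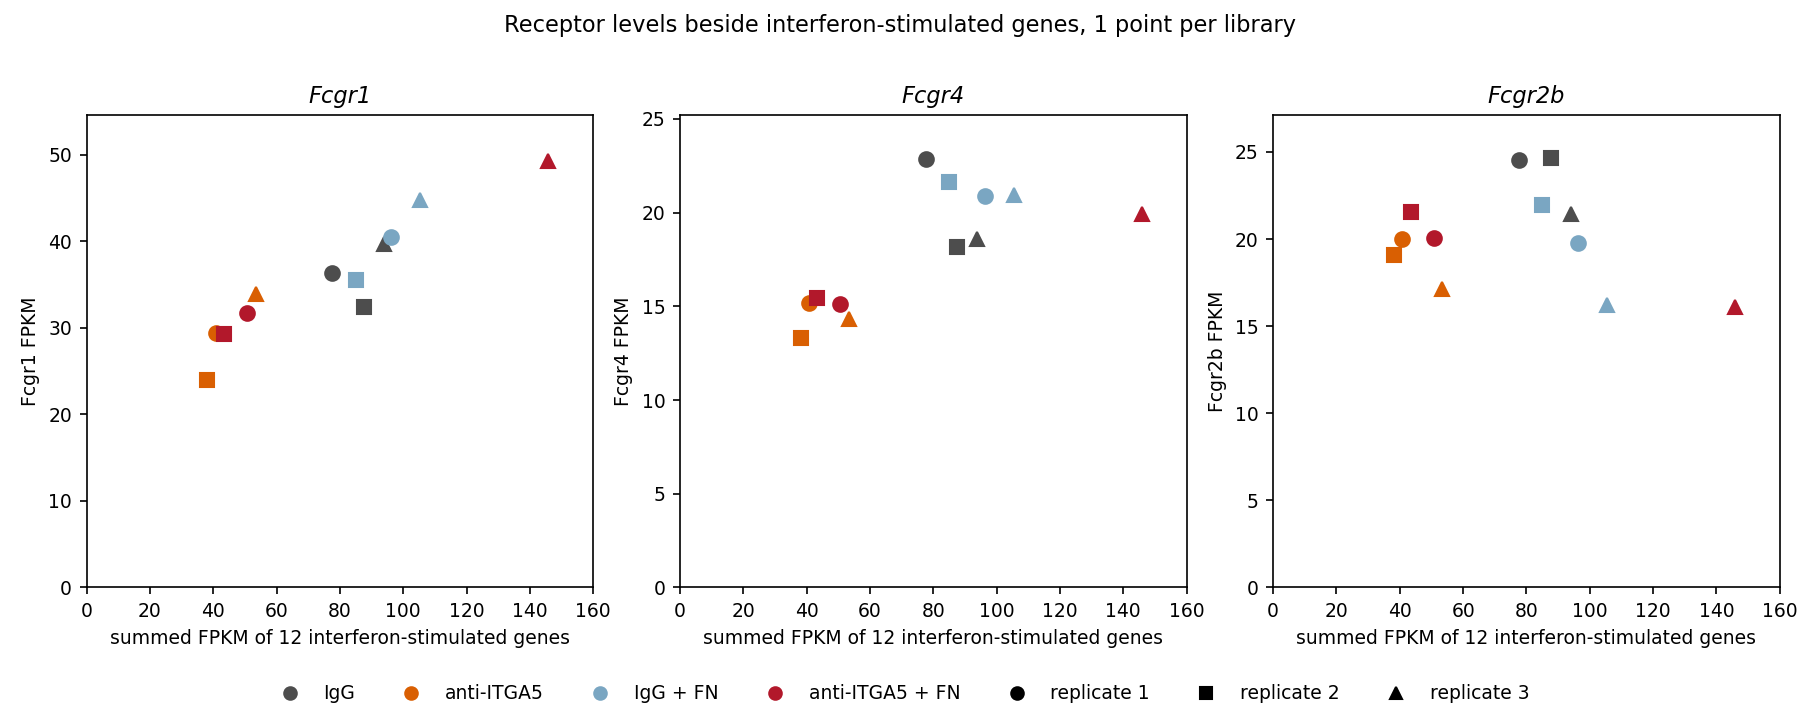
FPKM of Fcgr1, Fcgr4 and Fcgr2b (vertical axes) against the summed FPKM of 12 interferon-stimulated genes (horizontal axis), 1 point per library, with colour for the group and symbol for the replicate. Anti-ITGA5 with fibronectin replicate 3 is the point at the far right, at a sum of 146 FPKM, where Fcgr1 is at 49.3 FPKM, Fcgr4 at 19.9 FPKM and Fcgr2b at 16.1 FPKM.

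Whether the antibody difference depended on the coating was tested by the interaction over all 12 libraries. No member was called (0 of 8 by edgeR, 0 of 8 at an unadjusted p under 0.05 and 0 of 8 by DESeq2), with 0.0223% of 13455 genes called in all. Although Fcgr2b passed the test without fibronectin and not with it, the difference between these contrasts was 0.32 on the log2 scale (SE 0.15, edgeR adjusted p = 1.00) and was thus not shown. For Fcgr1 the interaction was 0.16 (SE 0.23), and for Fcgr4 0.13 (SE 0.15), both with the same adjusted p. Without anti-ITGA5 with fibronectin replicate 3 the interaction was -0.093 (SE 0.16) for Fcgr1 and 0.0059 (SE 0.13) for Fcgr4, which ranged up to 0.21 over single libraries left out.

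Fibronectin itself was compared with no coating to ask what the ligand of the integrin does to these genes. In IgG no member passed edgeR's test without a replicate block (0 of 8, with 0 of 8 by DESeq2), while 0.449% of 12925 genes were called. At an unadjusted p under 0.05 there were 2 members, Fcgr2b and Syk. Fcgr2b was at 24.5, 24.7 and 21.4 FPKM without and at 19.8, 22.0 and 16.2 FPKM with fibronectin, so that 1 coated library reached the uncoated range (log2 fold change -0.29, SE 0.080, edgeR adjusted p = 0.154). Each coated library was below the uncoated library of the same replicate number. With the replicate number as a block Fcgr2b was called lower, although replicate numbers did not meet the criterion for pairing. Over single libraries left out Fcgr2b ranged from -0.39 without IgG with fibronectin replicate 2 (adjusted p = 0.00703) to -0.18 without replicate 3 of the same group (adjusted p = 0.342), and the adjusted p was at most 0.618. Syk was above the uncoated range in each coated IgG library (log2 fold change 0.089, SE 0.039, edgeR adjusted p = 0.465), and Fcgrt was below it in each (-0.13, SE 0.068, adjusted p = 0.545). In the remaining members the difference ranged from -0.055 (Fcgr3) to 0.15 (Fcgr1) on the log2 scale. Fcgr1 ranged from 0.064 to 0.24 over single libraries left out. It was called in 1 of 15 alternatives, the edgeR fit with the replicate block (adjusted p = 0.0271).

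In anti-ITGA5, fibronectin against no coating gave 0 of 8 members by edgeR, 0 of 8 at an unadjusted p under 0.05 and 0 of 8 by DESeq2. None of the 12863 genes tested was called (0.00%), while DESeq2 called 7 genes. Fcgr1 had the largest estimate, 0.32 (SE 0.18, edgeR adjusted p = 0.979), followed by Fcgr4 at 0.22 (SE 0.12, adjusted p = 0.979). Without anti-ITGA5 with fibronectin replicate 3 these were 0.046 (SE 0.12) and 0.079 (SE 0.090). Without the shallow uncoated library they were 0.21 (SE 0.18) and 0.18 (SE 0.13).

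The adaptor, kinase and phosphatase were also set against the receptors within each library, as a description without a test. The ratio of Fcer1g to the summed FPKM of Fcgr1, Fcgr3 and Fcgr4 was 2.20 ± 0.10 (SD, n = 3) in IgG and 2.67 ± 0.081 in anti-ITGA5 without fibronectin. With fibronectin it was 2.18 ± 0.12 in IgG and 2.62 ± 0.22 in anti-ITGA5. The IgG libraries lay between 2.06 and 2.31 and the anti-ITGA5 libraries between 2.39 and 2.84, so the groups did not overlap on either coating. Fcgr3 made up most of the summed receptors (mean 208 FPKM, against 35.6 FPKM for Fcgr1 and 18.0 FPKM for Fcgr4). This ratio thus largely restates the difference of Fcgr3. The ratio of the summed activating receptors to Fcgr2b, by contrast, overlapped between antibodies: it was 12.4 ± 1.1 in IgG and 12.1 ± 1.8 in anti-ITGA5 without fibronectin, and 15.2 ± 2.8 and 12.9 ± 2.5 with it. Syk to Inpp5d, the kinase of the activating limb to the phosphatase of the inhibitory limb, was 0.728 ± 0.017 and 0.713 ± 0.020 without fibronectin. On fibronectin the ratio was 0.802 ± 0.025 in IgG and 0.715 ± 0.0058 in anti-ITGA5, where the libraries did not overlap.

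**Figure D4:**
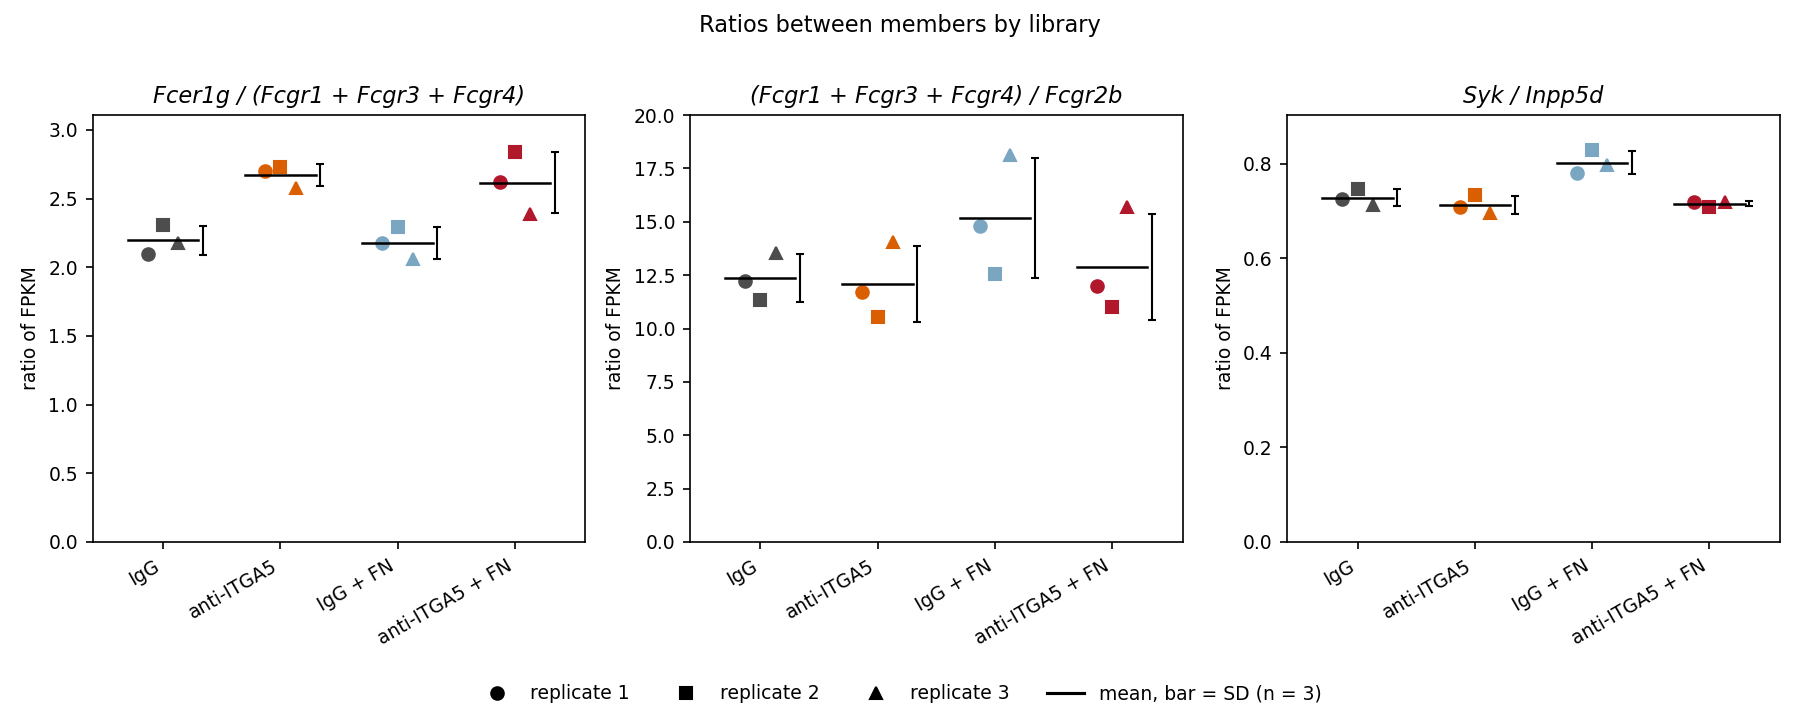
Ratios of FPKM (vertical axes, from 0) in each library by group: Fcer1g to the sum of Fcgr1, Fcgr3 and Fcgr4 (left), that sum to Fcgr2b (middle) and Syk to Inpp5d (right), with the mean and SD of 3 libraries. In the left panel all anti-ITGA5 libraries, at 2.39 to 2.84, lie above all IgG libraries, at 2.06 to 2.31.

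The rest of the pathway was read from 8 lists of genes, chosen with earlier results of these data known. Of 129 listed genes tested without fibronectin, 33 were lower and 13 higher in anti-ITGA5 by edgeR, and with fibronectin 42 and 17 of 128. Beside the shares of all genes tested (9.79% lower and 11.0% higher without fibronectin, 13.2% and 14.4% with it), the listed genes called higher were no more frequent than among all genes, and several counts of single lists were also near these shares. In IgG, 2 listed genes of 129 were lower with than without fibronectin (Fcrls, an Fc receptor-like scavenger gene, at -0.52, and Pik3cg, a catalytic subunit of phosphoinositide 3-kinase, at -0.19) and 2 were higher (Clec4e, the Mincle receptor that signals through Fcer1g, at 0.40, and Lgals3, galectin-3, at 0.26), beside 0.449% of all genes called in that contrast. These 4 were named after their values were seen.

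Among Src family kinases and their regulators, of 9 tested genes, 1 was lower and 1 higher without fibronectin, and 1 and 2 with it. Ptprj, a receptor phosphatase that opens Src kinases, was at -0.27 (SE 0.081, edgeR adjusted p = 0.040) and -0.39 (SE 0.043, 3.35e-05) on the log2 scale without and with fibronectin, lower in both. Fyn was higher by 0.24 and 0.21 (adjusted p = 0.00961 and 0.0126), and Lyn by 0.15 with fibronectin (adjusted p = 0.0166). The call of Ptprj without fibronectin was lost in 8 of 15 alternatives (adjusted p up to 0.15), that of Fyn in 1 of 15 without and 3 of 15 with fibronectin, and that of Lyn in 3 of 15.

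Adaptors that join Syk to its effectors moved in both directions, with 3 of 15 lower and 2 higher without fibronectin, and 3 and 1 with it. Gab1, a docking protein for phosphoinositide 3-kinase, had the largest difference, at -0.56 (SE 0.16, edgeR adjusted p = 0.0292) and -0.62 (SE 0.14, 0.00571). Sh3bp2, which binds Syk, was lower, at -0.20 and -0.27 (adjusted p = 0.0242 and 0.0013), while Lcp2, which encodes SLP-76, was higher by 0.24 and 0.27 (adjusted p = 0.00693 and 0.000666). Without fibronectin the calls of Gab1, Sh3bp2 and Lcp2 were lost in 7, 5 and 1 of 15 alternatives, and Gab1 ranged from -0.75 to -0.40 with single libraries left out. Among 18 kinases and phospholipases, 2 were lower and 1 higher without fibronectin, and 6 and 1 with it. Plcg1, which releases the second messengers of calcium signaling, was at -0.37 on both coatings (adjusted p = 0.0101 and 0.00158). Pik3ca was lower, at -0.20, and Pld2 higher, at 0.21, without fibronectin, and Pld1 and Prkcd were lower, at -0.28 and -0.26, with it (edgeR adjusted p between 0.000281 and 0.0388). The calls of Pld2, Pik3ca and Pld1 were lost in 9, 6 and 5 of 15 alternatives, that of Plcg1 without fibronectin in 1, and that of Prkcd in none.

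Of 26 actin and phagocytic cup genes, 2 were lower and 3 higher without fibronectin, near the 9.79% and 11.0% of all genes. With fibronectin 6 were lower and 5 higher, beside 13.2% and 14.4% of all genes. The near balance of the list is thus also that of all genes. Pak1, a kinase activated by Rac and Cdc42, was higher by 0.38 and 0.36 (edgeR adjusted p = 0.00236 and 0.00323), as was Coro1a, an actin-binding protein of phagosomes, by 0.26 and 0.21. Wipf1, a partner of WASP, was lower, at -0.29 and -0.14 (adjusted p = 0.00382 and 0.0251), and Myo1e, a myosin of the phagocytic cup, was lower with fibronectin, at -0.30 (adjusted p = 0.012), a call lost in 4 of 15 alternatives.

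Inhibitory receptors and phosphatases gave 6 of 19 lower and 3 higher without fibronectin, and 8 and 3 with it. Cd33, a sialic acid receptor with an ITIM, was lower, at -0.64 (SE 0.095, edgeR adjusted p = 0.000962) and -0.58 (SE 0.10, 0.0012), and Dok3, an adaptor that restrains Syk and ERK signals, at -0.63 and -0.66 (adjusted p = 0.00126 and 1.93e-05). Clec12a, an inhibitory lectin receptor, was higher, at 0.48 and 0.35 (adjusted p = 0.00115 and 0.000741), as was Inpp4b, a lipid phosphatase, at 0.42 and 0.54 (adjusted p = 0.0152 and 0.000926). The direction of the list was thus not uniform.

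Other receptors that signal through Fcer1g or through Tyrobp, its sister adaptor, listed with the adaptors Tyrobp and Hcst, were called in both directions: 6 of 16 were lower and 3 higher without fibronectin, and 5 and 3 with it. Without fibronectin the largest of those called were Trem1 at -0.77 (SE 0.23, edgeR adjusted p = 0.0366), Clec4n, the Dectin-2 receptor that pairs with Fcer1g, at -0.75 (SE 0.13, 0.00243), and Sirpb1c at -0.72 (SE 0.18, 0.015). The call of Trem1 was lost in 5 of 15 alternatives (adjusted p up to 0.151), and that of Sirpb1c in 2 of 15 without and 5 of 15 with fibronectin. On fibronectin Clec4n and Sirpb1c were at -0.70 and -0.62, and Trem2, a lipid receptor that signals through Tyrobp, was higher at 0.41 (adjusted p = 6.84e-05), and it was at 0.40 without fibronectin. Tyrobp, singled out after its values were seen, was at 571 to 733 FPKM in anti-ITGA5 and 805 to 911 FPKM in IgG over both coatings. It was lower, at -0.27 (SE 0.079, adjusted p = 0.0328) and -0.35 (SE 0.042, 6.72e-05), whereas Fcer1g passed neither test. The difference between the adaptors was not tested. Of the other antibody receptors, 6 of 15 genes were measurable without fibronectin, where B2m and Trim21, the cytosolic antibody receptor (-0.28; adjusted p = 0.0333), were lower. With fibronectin 5 were measurable, Lgals3 was lower at -0.29 (adjusted p = 0.000551) and Fcrls higher by 0.34 (adjusted p = 0.0133). The calls of Trim21, B2m and Fcrls were lost in 6, 2 and 3 of 15 alternatives.

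Factors and cytokine receptors known to set the level of Fc receptors were lower where called, with 1 exception. Their list was chosen with earlier results of these data known, so its counts are a description. Without fibronectin 11 of 20 were lower and 0 higher, beside 9.79% and 11.0% of all genes, with a median log2 fold change of -0.22 against 0.0090 for all genes. With fibronectin 12 were lower and 1 higher (Stat6, at 0.13), beside 13.2% and 14.4% of all genes, with a median of -0.25 against -0.0038. Tgfbr2, a receptor of TGF-β, was lower, at -0.41 (SE 0.048, edgeR adjusted p = 0.000223), Cebpa, a myeloid transcription factor, at -0.42 (SE 0.12, 0.0298) and Il4ra, a chain of the IL-4 receptor, at -0.35 (SE 0.089, 0.0192) without fibronectin, where the calls of Cebpa and Il4ra were each lost in 5 of 15 alternatives. With fibronectin the largest of those called were Cebpb at -0.47 (SE 0.055, 5.84e-05), Cebpa at -0.42 (SE 0.071, 0.000918) and Il10ra, the receptor of the cytokine that raises Fcgr1 in macrophages, at -0.35 (SE 0.067, 0.0023). When the library of low depth was left out, 14 were lower and 1 higher without fibronectin. With fibronectin, 13 were lower and 0 higher when anti-ITGA5 replicate 3 was left out. Macrophage markers differed as well and not in 1 direction: Lyz2 was lower, at -0.51 and -0.46, as were Mertk at -0.48 and -0.41 and Itgam at -0.47 and -0.31 and Cd68 at -0.20 and -0.17, Cd14 was higher by 0.46 and 0.25, and Adgre1 (0.018 and 0.10) and Csf1r (-0.12 and -0.016) passed neither test. Their part in the result was not tested.

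**Figure D5:**
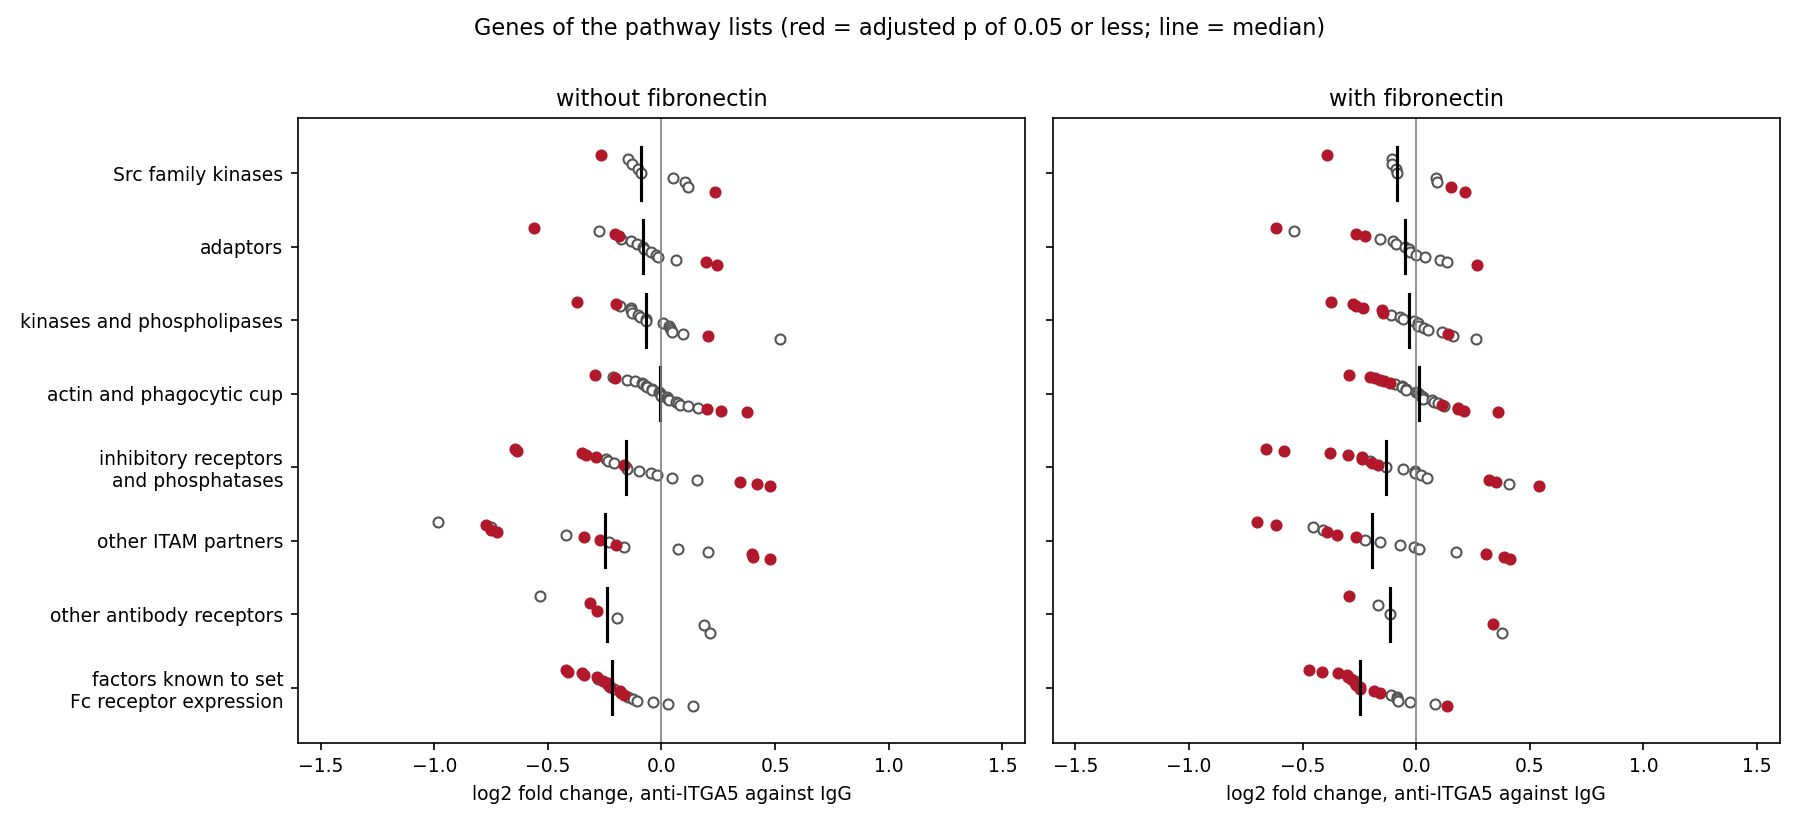
Log2 fold change of anti-ITGA5 against IgG (horizontal axes) for the genes of the 8 lists, without (left) and with fibronectin (right); each point is a gene, red where the gene was called, and black lines are medians. The list of factors known to set Fc receptor expression lies mostly to the left of 0, with medians of -0.22 and -0.25, while the actin list is centred on 0.

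Across the 12 libraries the members fell into separate patterns, given here as Pearson's r of log2 CPM without a test, since the points share antibody, coating and library composition. Fcgr4 and Syk (r = 0.83), Fcgr3 and Fcgr4 (r = 0.79), Syk and Inpp5d (r = 0.77) and Fcgr3 and Syk (r = 0.76) were the most alike. Fcer1g had an r of -0.044 with Syk, its partner in signaling, and Fcgr1 and Fcgr2b ran against each other (r = -0.40). Among 13455 genes, the closest to Fcgr1 were Tmem104 (r = 0.97), Ifi211 (0.96) and Ddx24 (0.96), and those closest to Fcgr4 were Sp140 (0.94), Ifitm3 (0.94) and F830016B08Rik (0.93). Fcgr3 was closest to Mgst1 (0.98), Bin2 (0.97) and Fam234a (0.97), Syk to Flii (0.97), Adap2 (0.97) and Tnfrsf1b (0.96), and Inpp5d to Trim8 (0.97), Fam210b (0.96) and Sh2b2 (0.93). For Fcgr2b the closest were 1700025G04Rik (0.90), Stard4 (0.89) and Pank1 (0.89). Fcer1g was closest to Rps25 (0.88), Ndufa3 (0.88) and Eef1a1 (0.87), which encode a ribosomal protein, a subunit of respiratory complex I and a translation factor, and Fcgrt to Ppp2r3d (0.85), Ctla2a (0.84) and Slc25a38 (0.82).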

How the data were processed

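RNA-seq was performed on 12 libraries, 3 per group, made from oligo(dT)-enriched RNA and sequenced in pairs. Per the submitters' processing notes the authors used TopHat2 2.0.9, HTSeq 0.6.1 and Cufflinks 2.1.1 with mm10/GRCm38.p6; the strand setting and annotation release are not given in the sources used here. The authors deposited raw counts per gene and, in a second table, FPKM per gene, which depend on annotated length. Overlapping genes had at most 4 counts for each member.

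Counts were tested with edgeR 4.0.16 in R 4.3.3 (filterByExpr, minimum count 10, TMM, quasi-likelihood test) on the 6 libraries of each contrast, or all 12 for the interaction, with Benjamini-Hochberg adjustment over all genes tested. FPKM were compared by 2-sided exact permutation tests. The threshold was an adjusted p of at most 0.05. The steps were tested on simulated data. Totals of 12954342 to 22075432 counts set the precision. Named were the members, Itga5, B2m, at most 3 called genes per list and antibody contrast with the largest log2 fold change, and the 3 genes most correlated with each member (log2 CPM, prior count 2). Outside that rule, Tyrobp, Stat6, Isg15, cell type markers and the genes called between coatings in IgG (Fcrls, Pik3cg, Clec4e and Lgals3) were also named. Members and lists were chosen with earlier results of these data known. Where a symbol had several gene IDs the one with the most counts was used. Of the list genes, Pira6 is not analysed here. Alternatives were DESeq2 1.42.0, its size factors, total counts, looser and stricter count filters, limma 3.58.1 on log2 FPKM with a pseudocount of 1 or 0.1 and a mean of at least 0.5 FPKM, the replicate number as a block, all 12 libraries in one fit, a threshold of 0.01, and leaving out each library in turn.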

Additional observations from a re-analysis of the deposited data

How the results depend on the processing

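Of the counts of members called, that without fibronectin (4 in the reported fit) was 2 at an adjusted p of at most 0.01 and 2 to 5 when single libraries were left out, and that with fibronectin (3) was 2 to 4. For fibronectin against no coating in IgG (0) it was 1 when every gene with 1 count was tested, where Fcgr2b was added, and 0 to 1 with single libraries left out, and in anti-ITGA5 (0) it was 1 when every gene with 1 count was tested, where Fcgr1 was added. The cause was not tested. Replicate numbers did not meet the criterion for pairing, since same-numbered libraries had correlations of 0.031 to 0.085 without and 0.047 to 0.17 with fibronectin in the antibody contrasts, and of 0.052 to 0.16 in IgG and -0.0085 to 0.15 in anti-ITGA5 in the coating contrasts. Every library correlated best with its own number in these contrasts except that of coating in anti-ITGA5, a hint from the data and not from the design. With the replicate block the counts were 5, 4, 2, 0 and 0 in the antibody contrasts without and with fibronectin, the coating contrasts in IgG and anti-ITGA5 and the interaction, with Fcgr1 called in the first 3 of these (adjusted p = 0.00363, 0.0357 and 0.0271) and Fcgr2b in the coating contrast in IgG (2.12e-06). Some values changed sign. Fcgr2b with fibronectin was 0.033 with total counts, and over single libraries left out it ranged from -0.12 to 0.11, as did Fcgr1 from -0.40 to 0.0033, Fcer1g from -0.021 to 0.059 and Fcgrt from -0.024 to 0.051. Fcgrt without fibronectin ranged from -0.030 to 0.054, and the interaction of Fcgr1 from -0.093 to 0.31. Of the other settings tried for single genes, 999 kept direction and call, 102 lost the call and 12 gained one. No other way of counting reads was tried for the paralogs Fcgr2b and Fcgr3.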

Other observations

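Fcgr1 and Inpp5d had their highest FPKM in replicate 3 of 4 of 4 groups, and Fcgr1 its lowest in replicate 2 of 4 of 4 groups. Fcgr2b had its lowest FPKM in replicate 3 of 4 of 4 groups, at 21.4 and 17.1 FPKM in IgG and anti-ITGA5 without fibronectin and at 16.2 and 16.1 FPKM with it. Syk was highest in replicate 3 of 3 of 4 groups. The numbers are given by the labels, which do not say what they share.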
